A study of Mus musculus with 4 samples.

Results

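The contacts described here are those made in trans, that is, between a viewpoint on mouse chromosome 3 and the other autosomes. They were read from 2101698 restriction fragments of 18 chromosomes, namely chromosomes 1, 2 and 4 to 19, out of 2350945 fragments in the whole table. The rule used the chromosome alone and no score, although it was set with earlier results of these data known. Circular chromosome conformation capture with sequencing (4C-seq) had been run from 2 viewpoints, the *Lef1* promoter and Leaf, a candidate enhancer of *Lef1*. Each viewpoint was assayed in whisker pads of E12.5 mouse embryos and in adult kidney, the tissue used as control. All animals were of the OF1 strain, with no genetic alteration or treatment given in the labels. The whisker pads were microdissected, 120 being collected (the labels give E12.5, the study's methods E12.5 and E13), and both tissues were used whole after digestion to single cells, so every library mixes the cell types of its tissue. The age of the adult mice and the sex of all mice are not given in the sources used here. Tissue and stage differed together, and the labelled tissue could not be checked against marker genes in contact data. There was 1 library for each tissue and viewpoint, 4 in all, so values are described without a test, and the spread between animals is unknown.

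In 4C-seq, chromatin is fixed and cut (here by NlaIII, which recognises CATG), neighbouring ends are ligated, a further cut by DpnII (GATC) makes small circles, and the fragments joined to the viewpoint are amplified and sequenced. Chromosomes occupy separate territories in the nucleus, so a locus meets its own chromosome far more often than any other one, and contacts in trans are spread thinly over the genome. Products of random ligation fall on the other chromosomes too, and so do reads of repeated sequence whose place of origin is ambiguous. *Lef1* encodes an HMG-box transcription factor of the Wnt pathway.

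The sequences below are the fragments on which the results turn, written from the GRCm38 (mm10) reference, plus strand, with the NlaIII sites at both ends and the DpnII sites inside in capitals. The coordinates include the NlaIII sites. The first 4 were, in each library, the highest-scored trans fragment of at most 150 bases that held a DpnII site. Every one of them was at 0 in the other 3 libraries, and 97.8% of all fragments scored in any library were likewise scored in 1 only.
Whisker pad, promoter viewpoint, chr16:73626803-73626884: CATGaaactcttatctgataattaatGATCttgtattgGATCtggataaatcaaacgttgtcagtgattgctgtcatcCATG
Kidney, promoter viewpoint, chr9:84477291-84477354: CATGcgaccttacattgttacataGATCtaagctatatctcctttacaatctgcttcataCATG
Whisker pad, Leaf viewpoint, chr16:54687243-54687354: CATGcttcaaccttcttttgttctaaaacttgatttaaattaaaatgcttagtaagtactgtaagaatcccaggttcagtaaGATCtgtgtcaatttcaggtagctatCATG
Kidney, Leaf viewpoint, chr8:53643750-53643824: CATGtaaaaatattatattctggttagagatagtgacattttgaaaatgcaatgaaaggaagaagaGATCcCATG
The next fragment was scored in all 4 libraries, and both its ends were found at 1 place in the reference. Further copies that the reference lacks would not have been counted.
Shared fragment in *Gm26917*, chr17:39843828-39844114: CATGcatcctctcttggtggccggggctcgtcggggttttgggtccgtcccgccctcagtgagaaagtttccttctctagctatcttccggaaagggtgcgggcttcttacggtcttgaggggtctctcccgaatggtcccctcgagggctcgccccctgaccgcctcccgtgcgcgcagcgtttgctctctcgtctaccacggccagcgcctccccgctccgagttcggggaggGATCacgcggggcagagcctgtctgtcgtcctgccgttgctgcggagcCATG
Of a pair of similar fragments on chromosomes 10 and 13, both carried the same score within each library.
Equal scores, copy in *E030030I06Rik*, chr10:22142209-22142350: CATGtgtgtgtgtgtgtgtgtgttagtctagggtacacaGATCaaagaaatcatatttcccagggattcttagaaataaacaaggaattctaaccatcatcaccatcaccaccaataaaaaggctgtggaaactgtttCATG
Equal scores, copy near *Gdi2*, chr13:3373674-3373818: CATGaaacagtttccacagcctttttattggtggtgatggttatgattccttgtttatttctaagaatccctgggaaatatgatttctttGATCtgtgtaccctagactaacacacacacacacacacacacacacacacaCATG
The last 4 lie in the 1 Mb bins where the Leaf viewpoint gave the largest excess in kidney, in the array of the noncoding gene *Snhg14* on chromosome 7 and among the *Cyp3a* genes on chromosome 5. In the *Snhg14* array, first and last refer to the scored fragments of 113 bases, and other scored fragments lie before them.
*Snhg14* array, first scored fragment, chr7:59674031-59674151: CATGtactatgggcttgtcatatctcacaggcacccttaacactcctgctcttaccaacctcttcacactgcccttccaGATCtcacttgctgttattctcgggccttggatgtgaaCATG
*Snhg14* array, last scored fragment, chr7:59902780-59902900: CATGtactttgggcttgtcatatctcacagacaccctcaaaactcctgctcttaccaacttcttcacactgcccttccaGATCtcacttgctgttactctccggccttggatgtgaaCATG
*Cyp3a* cluster, fragment in *Cyp3a63-ps*, chr5:145628120-145628258: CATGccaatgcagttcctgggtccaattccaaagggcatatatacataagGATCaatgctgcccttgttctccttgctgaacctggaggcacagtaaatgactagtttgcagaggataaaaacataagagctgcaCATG
*Cyp3a* cluster, fragment in *Cyp3a44*, chr5:145778002-145778140: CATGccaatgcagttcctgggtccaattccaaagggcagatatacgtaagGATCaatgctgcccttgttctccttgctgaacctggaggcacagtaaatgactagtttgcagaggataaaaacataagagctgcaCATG

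The raw score, the authors' signal per fragment, was above 0 on few of the trans fragments. From the *Lef1* promoter, 21095 of them (1.00%) were scored in whisker pad and 25105 (1.19%) in kidney. From Leaf, 10086 (0.480%) were scored in whisker pad and 11108 (0.529%) in kidney. The 95% Wilson intervals of these shares did not overlap (0.990 to 1.02%, 1.18 to 1.21%, 0.471 to 0.489% and 0.519 to 0.538%, in the same order), but they cover counting error over fragments only. The promoter libraries thus touched more trans fragments than the Leaf libraries, and kidney more than whisker pad from either viewpoint. The order of the tissues from Leaf turned when only scores of at least 1 were counted, at 0.447% in whisker pad and 0.428% in kidney. The number of reads behind the scores is unknown, and its part in these differences was not tested. Trans fragments held 60.0% of the summed score of the genome in whisker pad and 81.8% in kidney from the promoter, and 70.2% and 84.0% from Leaf. The summed score of the whole genome lay between 787783 and 854206 in the 4 libraries. For comparison, chromosome 3 more than 5 Mb away from the viewpoints was scored on 2.75% and 1.70% of fragments from the promoter and on 0.980% and 0.699% from Leaf, in whisker pad and kidney respectively. Those shares were 2.74, 1.42, 2.04 and 1.32 times the trans shares of the same libraries.

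The trans score was shared out among the chromosomes nearly in proportion to their fragments. In the whisker pad promoter library the share of fragments above 0 ran from 0.928% on chromosome 6 to 1.08% on chromosome 17. In the kidney promoter library it ran from 1.11% on chromosome 19 to 1.26% on chromosome 4. The whisker pad Leaf library ran from 0.450% on chromosome 13 to 0.532% on chromosome 19, and the kidney Leaf library from 0.483% on chromosome 16 to 0.593% on chromosome 17. The highest chromosome was therefore only 1.14 to 1.23 times the lowest in each library. The Wilson interval of a chromosome held the mean of its library for 15, 12, 18 and 16 of the 18 chromosomes. Across the 18 chromosomes the number of scored fragments followed the number of fragments with a Pearson correlation of 0.980 to 0.991, and the summed score followed it at 0.970 to 0.986.

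**Figure D1:**
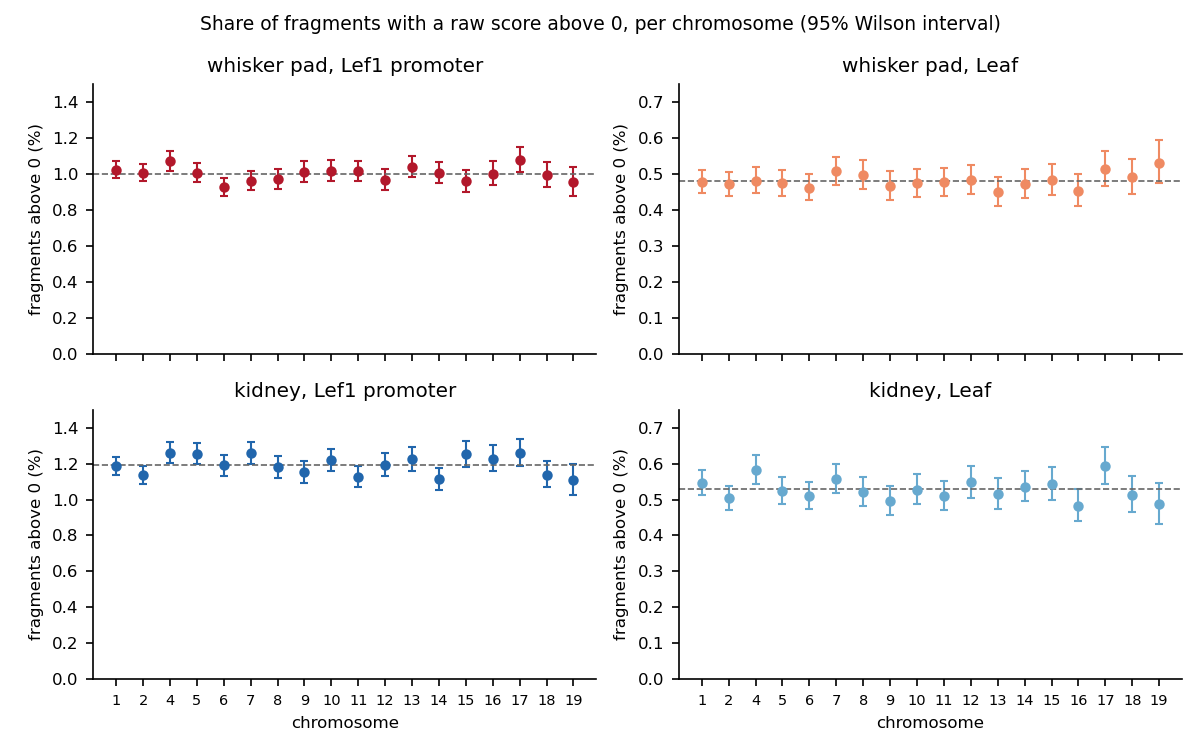
Share of the fragments of each chromosome (x axis) with a raw score above 0 (y axis, percent) in the 4 libraries. Points are single libraries, bars the 95% Wilson interval over fragments, and the dashed line the share over all 18 chromosomes (1.00, 1.19, 0.480 and 0.529%). No chromosome was more than 1.23 times another in the same library.

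The plot by chromosome shows chromosomes 4 and 17 above the mean of the library in all 4 libraries, the only ones to do so. On chromosome 4 the shares were 1.07%, 1.26%, 0.482% and 0.582% (whisker pad promoter, kidney promoter, whisker pad Leaf, kidney Leaf, an order kept below). On chromosome 17 they were 1.08%, 1.26%, 0.513% and 0.593%. With only fragments whose ends occur at 1 place in the reference, chromosome 4 stood at 1.05, 1.03, 0.97 and 0.98 times the mean, above it in 2 libraries, and chromosome 17 at 1.05, 1.01, 1.02 and 1.13 times. Chromosome 18 was then also above the mean in all 4 libraries, by 1.03 times at most. The order of the chromosomes differed between libraries. The Spearman correlation of their shares, over 18 points that share fragment make-up, was 0.60 for the 2 kidney libraries and -0.21 for the 2 whisker pad libraries, with 0.23 between the tissues from the promoter and 0.47 from Leaf. Under summed score per fragment the same values were 0.18, 0.39, 0.16 and -0.28. By score, the highest and lowest chromosome of a library lay between 0.85 and 1.16 times the score that their fragment number would give.

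At a scale of 1 Mb, 2253 of 2256 bins held at least 100 fragments, with a median of 967. The median bin had 9, 11, 4 and 5 scored fragments in the 4 libraries, so a single bin is known only loosely, and 5 scored of 967 carries a Wilson interval of 0.221 to 1.20%. In the Leaf libraries 42 (whisker pad) and 31 (kidney) bins had no scored fragment, against 1 and 4 in the promoter libraries. No bin held more than 0.238% of the trans score of a library, where equal shares would be 0.0444%, and it took 657, 709, 535 and 508 bins to hold 50% of it. The libraries agreed little on which bins were high. Spearman correlations over the 2253 bins lay between 0.03 and 0.10 for the 6 pairs of libraries, with 0.05 between the tissues from the promoter, 0.03 between the tissues from Leaf, 0.10 between the viewpoints in whisker pad and 0.08 between them in kidney. Pearson correlations were higher, from 0.23 to 0.41. They fell to between 0.01 and 0.07 when only fragments with both ends at 1 place were counted, over 2227 bins, and to between 0.04 and 0.19 without the 10 highest bins, choices made after the data had been seen. The bins share mappability and fragment make-up across libraries.

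**Figure D2:**
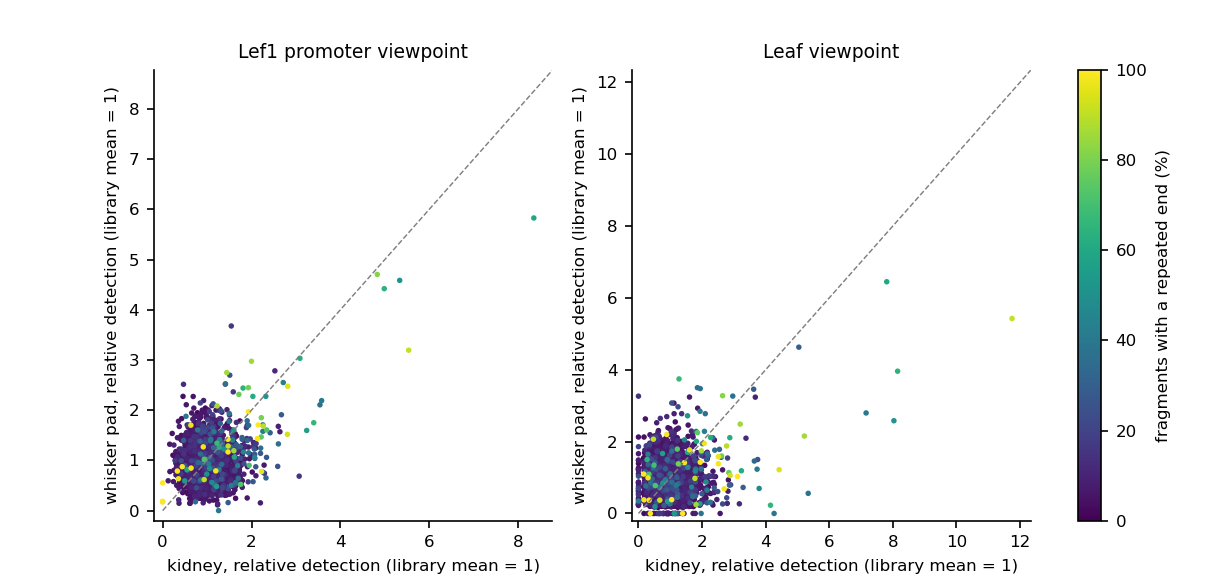
Relative detection of 2253 bins of 1 Mb, that is, the share of fragments above 0 divided by the share over all trans fragments of the library, in whisker pad (y axis) against kidney (x axis), for each viewpoint. Each point is 1 bin, coloured by the percent of its fragments with an end that recurs in the reference, and the dashed line marks equal values. Most bins form a round cloud near 1, and the few points far along the diagonal are bins rich in recurring ends.

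The scatter of bins shows a handful that were high in every library. The highest bin, averaged over the libraries, was chr1:85000001-86000000, which holds *Sp110*, *Sp140* and *Sp100*, genes of interferon-responsive nuclear body proteins. There 51, 87, 27 and 36 of 872 fragments were scored, or 5.85%, 9.98%, 3.10% and 4.13%, and 59.5% of its fragments had a recurring end against 5.49% in the median bin. Neighbouring bins of chromosome 4 came next. In chr4:146000001-147000000, with *Zfp600* and *Zfp992* among a cluster of zinc finger genes, 16, 33, 13 and 31 of 499 fragments were scored. Of the 789 fragments in chr4:147000001-148000000, 35, 47, 15 and 34 were scored, and in chr4:145000001-146000000 the counts were 18, 35, 11 and 31 of 819. The fourth place belonged to chr5:15000001-16000000, with the *Speer4c* and *Speer4d* genes expressed in spermatogenesis, at 26, 36, 7 and 24 of 565. All 5 bins were above the library mean in every library, at 3.93 to 7.11 times it on average, and 40.3 to 91.4% of their fragments had a recurring end.

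Recurring ends were also frequent in some of the lowest bins. The lowest bins were neighbours on chromosome 7 that hold the *Vmn1r* genes, which encode pheromone receptors of the vomeronasal organ. In chr7:22000001-23000000 only 1, 0, 1 and 1 of 562 fragments were scored, and every fragment of that bin had a recurring end. The counts were 1, 0, 1 and 2 of 563 in chr7:20000001-21000000 and 1, 0, 0 and 4 of 544 in chr7:21000001-22000000. A count of 0 there allows a share of up to 0.533 to 0.551%. In chr2:176000001-177000000, another zinc finger cluster, 4, 2, 0 and 1 of 506 were scored. The fifth, chr11:30000001-31000000 with *Sptbn1* (a spectrin) and *Psme4* (a proteasome activator), had 3, 4, 1 and 2 of 766 and only 6.53% of recurring ends. The rest of the 10 lowest bins had 2.75 to 7.87% of recurring ends, beside 5.49% in the median bin. Bins with 50 to 75% of recurring ends were scored at 1.94, 2.42, 1.86 and 2.40 times the library mean, and bins with 75% or more at 1.47, 1.55, 1.38 and 2.02 times, but single bins of this last kind ran from 0 to 11.8 times.

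To compare the tissues bin by bin, relative detection was set side by side for bins with at least 20 scored fragments in the 2 libraries of a viewpoint together, and a 2-fold difference or more was counted. A bin could reach that minimum through the tissue where it was high, so the counts are shaped by this choice, above all from Leaf, where the median bin had 4 and 5 scored fragments. From the promoter, 84 of 1202 trans bins (6.99%) were higher in whisker pad and 72 (5.99%) in kidney. Over the bins of all chromosomes the shares were 11% and 5.87%, and the surplus in whisker pad came from chromosome 3, where 64 bins were counted. The trans share was thus below that of the whole genome towards whisker pad and level with it towards kidney. From Leaf only 27 trans bins could be compared, of which 4 (14.8%) were higher in whisker pad and 8 (29.6%) in kidney, beside 44.9% and 13% of the 69 bins of all chromosomes. At 4-fold, 4 and 1 promoter bins and 0 and 2 Leaf bins were left, and in 5 Mb bins 4 and 2 of 464 and 11 and 9 of 454. Among 25 bins compared from both viewpoints, 0 were counted from the promoter, and 4 towards whisker pad and 7 towards kidney from Leaf. The log2 ratio of whisker pad to kidney correlated between the viewpoints at only 0.04 (Spearman, 2253 bins).

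The bins with the largest promoter ratios are given with their Leaf counts. Whisker pad was highest relative to kidney in chr18:87000001-88000000 (18 scored against 4, of 713), where Leaf gave 2 against 6, and 10 of those 18 fragments had a recurring end. With the 0.1 added to both values to rank the ratios, next was chr12:99000001-100000000, with the forkhead gene *Foxn3*, at 25 against 6 of 1095, where Leaf gave 3 against 2. In chr17:31000001-32000000, with the trefoil factor genes *Tff1* to *Tff3*, the counts were 21 against 5 of 1176 from the promoter and 9 against 8 from Leaf. Without the added value its ratio was just above that of the *Foxn3* bin, which was 4.96. The bins chr5:89000001-90000000 with *Gc*, the vitamin D binding protein, and chr9:96000001-97000000 with the exonuclease gene *Xrn1* followed, at 18 against 5 of 979 and 20 against 6 of 945, where Leaf gave 5 against 5 and 5 against 7. The largest ratio towards kidney was in chr15:23000001-24000000, with the cadherin gene *Cdh18*, at 2 against 18 of 792 from the promoter and 3 against 4 from Leaf. A bin of type I keratin genes, chr11:99000001-100000000 with *Krt10* and *Krt25*, had 5 scored in whisker pad and 23 in kidney of 1075, where Leaf gave 7 against 3. The other bins towards kidney were chr7:10000001-11000000 with vomeronasal receptor genes (4 against 17 of 612, Leaf 4 against 1), chr1:173000001-174000000 with interferon-inducible *Ifi* genes (5 against 21 of 864, Leaf 7 against 9) and chr9:94000001-95000000 with the exchanger gene *Slc9a9* (4 against 17 of 967, Leaf 4 against 6). From Leaf, chr13:50000001-51000000 with *Nutm2* had 16 against 6 of 890, 10 of the 16 with a recurring end, where the promoter gave 12 against 13. The bin with the *Apol* genes, chr15:77000001-78000000, had 16 against 6 of 1084, 11 of the 16 with a recurring end, and the bin of the polarity gene *Pard3*, chr8:127000001-128000000, had 14 against 7 of 1144, 0 of the 14 with a recurring end, where the promoter gave 11 against 13 and 11 against 14. The bins chr15:82000001-83000000 (13 against 7 of 975) and chr4:3000001-4000000 (13 against 8 of 779) came after them, and over these 5 bins 33 of 72 scored fragments had a recurring end. All these bins were named for their ratios, so the ratios are a description.

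The largest Leaf ratios lay in bins of repeated genes. In chr7:59000001-60000000, which holds the imprinted genes *Ube3a* and *Snrpn* and the long noncoding *Snhg14*, a host of small nucleolar RNAs, 1 of 911 fragments was scored in whisker pad and 20 in kidney. Of those 20, 15 were fragments of exactly 113 bases, a length that occurs 60 times in the bin, and their scores ran only from 0.04 to 0.25. The first and the last of them are printed above. They matched at 114 of 121 positions, with no gap. Only 2 of the 20 fragments had a score of 1 or more. From the promoter the same bin had 16 scored in whisker pad and 37 in kidney. In chr5:145000001-146000000, the bin of the *Cyp3a* genes, which encode drug- and steroid-metabolising cytochromes P450, 2 of 744 were scored in whisker pad and 21 in kidney, and 15 of the 21 had a recurring end. The promoter gave 12 against 7 there, the other way. In the Leaf kidney library 15 of the 21 scores were 1 or more. The printed fragments of *Cyp3a63-ps*, a pseudogene, and *Cyp3a44* differed at 2 of 139 positions and had the same score, 41.64. The others were the zinc finger bin chr2:177000001-178000000 (4 against 16 of 684), the *Speer4* bin on chromosome 5 named above (7 against 24 of 565) and chr14:43000001-44000000 with the ribonuclease genes *Ear1* and *Ear10* (5 against 15 of 984). Across the 5 Leaf bins highest towards kidney, 83 of 96 scored fragments had a recurring end. When only fragments with ends at 1 place were counted, 1 Leaf bin was left to compare, so these ratios could not be compared without recurring sequence.

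Few fragments carried the score. In each library 50% of the trans score was held by 2917, 3880, 1577 and 1356 fragments, which were 13.8%, 15.5%, 15.6% and 12.2% of the scored ones and 0.139%, 0.185%, 0.0750% and 0.0645% of all trans fragments. The number holding 90% was 10251, 13115, 5159 and 4467. No single fragment dominated, since the highest held between 0.0407 and 0.112% of the trans score and the highest 100 together 3.59%, 2.88%, 6.45% and 7.38%. Median scores above 0 were 14.4, 17.0, 34.6 and 23.5, with highest scores of 231.8, 273.8, 607.4 and 741.9. Since the scaling of the scores is not stated, these levels describe each library and are not compared between libraries. At the low end, 19.8%, 14.5%, 6.79% and 19.1% of the scored fragments were below 1, and together these held no more than 0.131% of the trans score. Scores of at most 0.02 were found on 1784 and 1158 fragments of the promoter libraries but on 10 and 119 of the Leaf libraries. In the promoter libraries 57.3% and 54.1% of them lay right beside a fragment scored 1 or more, a neighbour that 0.428% and 0.530% of all trans fragments had.

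**Figure D3:**
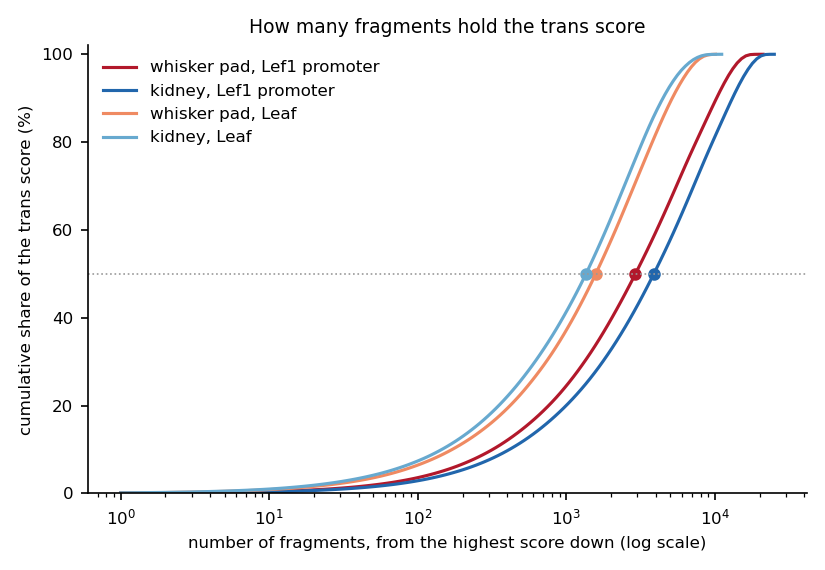
Cumulative share of the trans score (y axis, percent) held by a given number of fragments taken from the highest score down (x axis, log scale), 1 line per library. Dots mark the number that holds 50%, from 1356 in the kidney Leaf library to 3880 in the kidney promoter library.

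The curves of held score rise without a step. The fragments at their start mostly belonged to single libraries, as did 97.8% of all fragments scored in any library. Of the 100 highest fragments in each library, 0, 2, 1 and 0 were above 0 in any other library. Over all trans fragments 1.00%, 1.19%, 0.480% and 0.529% were above 0 in the 4 libraries, so few of any 100 fragments would be scored elsewhere. The low counts are therefore not a trait of the highest fragments. They lay on all 18 chromosomes and in 96 to 98 different bins, and 6, 8, 3 and 6 of them had a recurring end. In the whisker pad promoter library the 5 highest were chr6:122947884-122948435 near *Clec4a3* (231.8), chr17:32170459-32170503 beside *Notch3* (231.5), chr6:141724895-141725115 in *Gm5724* (226.4), chr17:76450292-76450838 (224.7) and chr16:73626807-73626880 (220.2). *Notch3*, a receptor of the Notch pathway, lay 3607 bases from its fragment, which has 45 bases and no DpnII site. In kidney the promoter gave chr11:61373262-61374486 in *Slc47a1*, a cation transporter of the renal tubule (273.8), then chr9:84477295-84477350 (254.4), chr15:41388408-41389357 (243.6), chr19:50445573-50445672 in *Sorcs1* (234.8) and chr4:94582388-94582571 in *Plaa* (230.8). All 10 of these were at 0 in the other 3 libraries.

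From Leaf in whisker pad, the highest fragments were chr16:54687247-54687350 (607.4), chr8:17646585-17646640 (552.3), chr5:128247709-128247864 in *Tmem132d* (532.9), chr14:70441056-70441126 in *Polr3d*, a subunit of RNA polymerase III (528.7), and chr19:9764318-9764488 (497.8). In kidney they were chr8:53643754-53643820, 4689 bases from the DNA repair gene *Neil3* (741.9), chr9:65179403-65179534 in *Igdcc3* (711.5), chr8:125589548-125589702 (698.2), chr12:88332775-88332843 (664.0) and chr14:106709230-106709261 (634.6). Again all 10 were at 0 elsewhere. The only fragment among the 10 highest of any library that was scored in another was chr16:67437838-67438220 in *Cadm2*, a cell adhesion gene, with 31.17 and 226.9 from the promoter in whisker pad and kidney.

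Agreement was as low fragment by fragment. Of 65862 fragments above 0 in any library, 64414 were scored in 1, 1380 in 2, 52 in 3 and 16 in all 4. From the promoter 522 fragments were scored in both tissues, which was 2.47% of those scored in whisker pad and 2.08% of those in kidney, and 2.07 times what the share of all fragments would give. From Leaf 172 were scored in both tissues, 1.71% and 1.55%, or 3.23 times. The 2 viewpoints shared 191 fragments in whisker pad (0.905% and 1.89%, 1.89 times) and 282 in kidney (1.12% and 2.54%, 2.13 times). Pairs that differed in tissue and viewpoint shared 247 and 218, at 2.22 and 1.81 times. The Leaf pair of tissues was the highest, and the other pairs that shared a tissue or a viewpoint lay between the values of the pairs that shared neither. With a score of at least 1 the Leaf pair fell to 2.21 times, beside 2.06 times for whisker pad promoter with kidney Leaf. Shared fragments held no more than 1.52% of the trans score of a library in any pair.

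**Figure D4:**
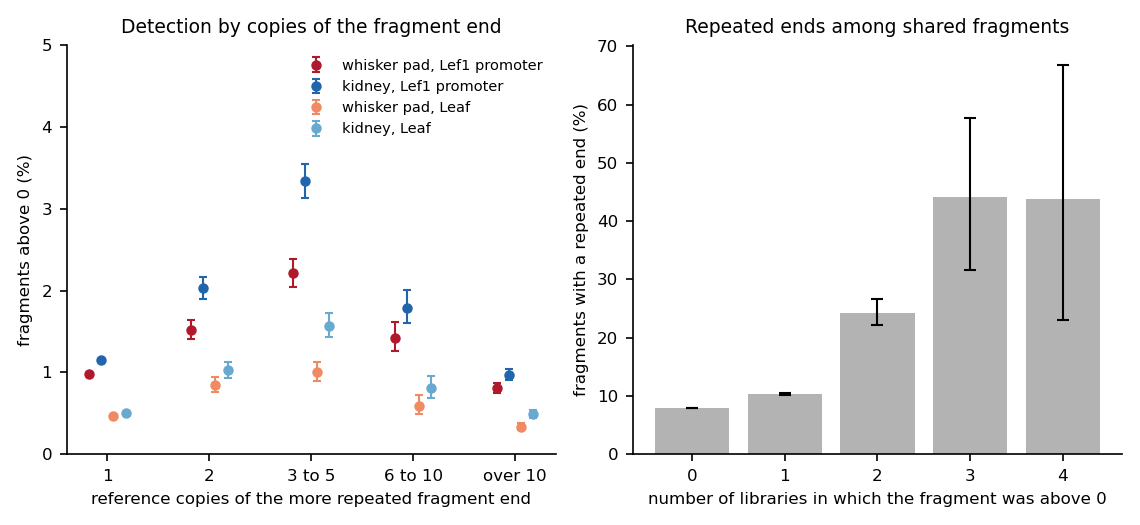
Left, share of fragments above 0 (y axis, percent) by the number of places in the reference at which the more repeated of the 2 fragment ends occurs (x axis), for each library. Right, percent of fragments with a recurring end (y axis) by the number of libraries in which the fragment was above 0 (x axis, grey columns). Error bars are 95% Wilson intervals. Detection peaked at 3 to 5 copies, and recurring ends rose from 7.89% of unscored fragments to 44.2% of those in 3 libraries.

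Fragments scored in several libraries more often had a recurring end. An end was called recurring when the 32 bases next to the NlaIII site occurred beside another NlaIII site of the reference. The mitochondrial genome was left out of this count. Copies that the reference lacks could not be counted either, so an end at 1 place need not be single in the genome. Recurring ends were found on 7.98% of trans fragments. The plot of copies shows detection of 0.980%, 1.15%, 0.470% and 0.502% where both ends were at 1 place, and of 2.21%, 3.34%, 1.00% and 1.57% where the more repeated end had 3 to 5 copies. With over 10 copies it was 0.811%, 0.972%, 0.336% and 0.487%, below the mean of each library. Recurring ends made up 10.3% of the fragments scored in 1 library, 24.3% of those in 2 and 44.2% of those in 3, and 7 of the 16 in all 4. Fragments with both ends at 1 place still held 93.1 to 94.6% of the trans score, and were 92.0% of the fragments. Among them, the shared fragments of a pair were 1.54 to 3.05 times what the share of all such fragments would give.

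Some fragments recur as a whole. The trans chromosomes held 8520 sets of identical fragments of 20 bases or more, 21891 fragments in all. In the whisker pad promoter library 135 sets had a scored member, and in 133 of them every copy was scored. In 132 of the 134 sets with 2 or more scored copies the scores were equal. The corresponding counts of equal sets were 169 of 170, 56 of 57 and 91 of 93 in the other libraries. Copies of a sequence thus mostly carried the same score. The median score of scored identical fragments was 3.31, 2.89, 9.04 and 3.25, against 14.6, 17.3, 35.1 and 24.2 for scored fragments without an identical copy. These sets held only 0.397 to 0.567% of the trans score.

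Of the fragments scored everywhere, 10 had at least 1 in each library. The highest by its lowest score was chr16:3114975-3115491, near the start of the assembled chromosome, at 33.34, 21.42, 38.03 and 52.50, followed by chr1:58613627-58613978 near *Ndufb3*, a subunit of mitochondrial complex I, at 21.26, 44.63, 52.03 and 95.77. The fragment chr15:75086357-75086786 near *Ly6c2* had 15.73, 35.10, 11.70 and 20.46. Further fragments near the starts of chromosomes 16 and 18 were chr16:3115844-3116269, at 12.16, 20.39, 32.62 and 16.30, chr16:3351099-3351549, at 16.67, 10.71, 19.01 and 26.25, and chr18:3005185-3005604, at 10.71, 19.19, 10.63 and 15.08. The printed one on chromosome 17, chr17:39843832-39844110, had 9.36, 25.33, 5.32 and 4.00. It lies in an exon of the noncoding gene *Gm26917* and 2243 bases from *CT010467.1*, an annotated ribosomal RNA gene, and its neighbour chr17:39844115-39844964 was also scored in all 4 libraries, at 3.88, 3.72, 6.34 and 4.00. All 10 lay outside protein-coding genes and their starts, where 50.4% of trans fragments lie. Of all 68 fragments scored in 3 or 4 libraries, 30 had a recurring end and 11 (16.2%) lay within 1 Mb of the first or last scored position of their chromosome, where 1.49% of trans fragments lie.

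Equal scores recurred among these 68, since 15 of them had the same scores as another. The printed pair, chr10:22142213-22142346 in *E030030I06Rik* and chr13:3373678-3373814 near *Gdi2*, both had 17.08, 29.91, 0 and 26.97. Turned to the same strand the printed sequences matched at 132 positions with 1 mismatch, beside 21 gap positions. Around *Duxf3*, a homeobox gene of the early embryo, chr10:58221067-58221538, chr10:58225962-58226422 and chr10:58233641-58234101 each had 0, 3.29, 3.47 and 2.98. In all, 13 trans fragments, 3 of them among the 68, had an end that occurs in the mitochondrial genome, 7 of them on chromosome 1 among pseudogenes such as *Gm28437*. Such a match was not counted as a copy, and most of the 13 passed as having ends at 1 place. Of the 13, 3 were scored in whisker pad and 10 in kidney from the promoter, and 1 and 8 from Leaf. Their highest score was 35.05, in the kidney Leaf library, at chr1:24615851-24615901 and chr2:22588248-22588298 alike. The tissues differed here in the same direction from both viewpoints, on few fragments that are not independent of each other.

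Several properties of the fragments went with detection in every library. The share above 0 rose with length, from 0.695%, 0.732%, 0.352% and 0.386% in the shortest of 5 equal groups (median 108 bases) to 1.33%, 1.84%, 0.611% and 0.756% in the longest (median 724 bases). By summed score the shortest group held 17.4%, 16.6%, 21.6% and 25.3% of the trans score and the longest 20.4%, 24.9%, 17.5% and 19.0%. The direction by score was thus the opposite in both Leaf libraries. The 34323 fragments without a DpnII site were scored on 0.449%, 0.489%, 0.277% and 0.248%. Fragments centred within 2 kb of the start of a protein-coding gene were scored on 1.33%, 1.33%, 0.545% and 0.603%, which was 1.33, 1.12, 1.14 and 1.14 times the library mean, and the Wilson interval lay above that mean in all 4 libraries. Gene bodies and the space outside genes stayed within 0.96 to 1.03 times it. By summed score the fragments near gene starts held 4.04%, 3.59%, 3.63% and 3.10% of the trans score, and made up 3.96% of the fragments. An excess in all 4 libraries was thus seen in detection only.

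Base composition went with a difference between the tissues, in the same direction from both viewpoints. When trans fragments were put into 5 equal groups by the GC content of their 1 Mb bin, whisker pad detection from the promoter was 0.889%, 1.00%, 1.01%, 1.05% and 1.07% from the lowest GC group to the highest, while kidney detection was 1.28%, 1.24%, 1.19%, 1.18% and 1.09%. From Leaf, whisker pad gave 0.448%, 0.440%, 0.498%, 0.50% and 0.514%, and kidney 0.539%, 0.563%, 0.549%, 0.502% and 0.490%. The ratio of relative detection, whisker pad over kidney, was 0.825, 0.965, 1.01, 1.06 and 1.17 from the promoter and 0.915, 0.861, 0.999, 1.10 and 1.15 from Leaf, where the second group was the lowest. In all 4 libraries the Wilson intervals of the lowest and the highest group did not overlap. By summed score from the promoter, the lowest and highest group held 19.2% and 20.6% of the trans score in whisker pad. In kidney they held 22.5% and 17.8%. From Leaf the shares were 20.4% and 20.2% in whisker pad, with no rise, and 22.2% and 17.7% in kidney. The 2 upper groups were more detected relative to the 2 lower ones in whisker pad than in kidney on 17 of the 18 chromosomes from the promoter and on 17 from Leaf.

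**Figure D5:**
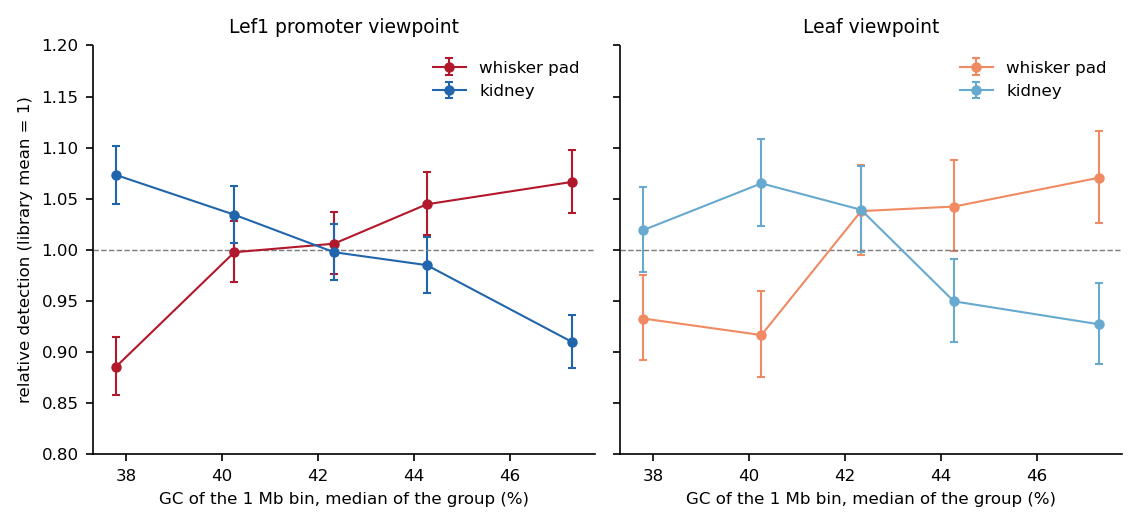
Relative detection (y axis, share of fragments above 0 divided by the share over all trans fragments of the library) in 5 equal groups of fragments by the GC content of their 1 Mb bin (x axis, percent, median of the group). Points are single libraries and bars 95% Wilson intervals over fragments. In both viewpoints the whisker pad value is higher in the highest than in the lowest group and the kidney value lower.

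The contrast in the plot by GC content was also read in narrower sets of fragments, chosen after the data had been seen. With ends at 1 place only, the ratio of whisker pad to kidney was 0.820 in the lowest and 1.18 in the highest group from the promoter, and 0.890 and 1.14 from Leaf. With fragments of 250 to 450 bases it was 0.852 and 1.13, and 0.875 and 1.22. In fragments of the middle of 5 groups by their own GC it had no steady rise, at 0.825, 1.06, 0.930, 1.05 and 1.16 from the promoter and 1.05, 0.904, 0.952, 1.07 and 1.12 from Leaf. The number of protein-coding genes in the bin moved with GC, and the promoter ratio was 0.853 in bins with no such gene and 1.11 in bins with over 20. Over 2253 bins the log2 ratio of the tissues correlated with bin GC at 0.23 from the promoter and 0.14 from Leaf (Spearman, a description). Since tissue, stage and library preparation differed together, their parts cannot be told apart with 1 library each.

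Lists of genes were read with 10 kb on either side. The Wilson intervals take fragments as independent, but scored fragments tended to lie side by side. In the 4 libraries 11.3%, 5.88%, 0.535% and 0.756% of scored fragments had a scored neighbour, against 0.563%, 0.635%, 0.247% and 0.271% of all trans fragments. The intervals of the lists are thus too narrow, above all in the promoter libraries. Around 17 Wnt pathway genes, which include the *Lef1* relatives *Tcf7*, *Tcf7l1* and *Tcf7l2*, 8, 18, 15 and 5 of 1659 fragments were scored, or 0.48, 0.91, 1.88 and 0.57 times the library mean. The Wilson interval lay below the mean in the whisker pad promoter library and above it in the whisker pad Leaf library. Without *Tcf7l2*, the longest gene of the list, 8 of 1405 fragments were scored in the whisker pad promoter library and its interval (0.289 to 1.12%) held the mean, while the whisker pad Leaf interval (0.542 to 1.58%) stayed above its own. At *Tcf7l2*, a close relative of *Lef1*, 0, 6, 2 and 1 of 254 fragments were scored. For *Ctnnb1*, which encodes beta-catenin, the partner of these factors, 0 of 56 fragments were scored in any library, and for *Axin2*, a target of the pathway, 2, 0, 0 and 0 of 65. In total 13 of the 17 genes had a scored fragment in some library, and none had one in all 4.

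Around 18 genes of the whisker follicle, 66, 66, 24 and 20 of 4827 fragments were scored, or 1.36, 1.14, 1.04 and 0.78 times the mean, with the interval above the mean in the whisker pad promoter library, but the annotated span of *Fgfr2* alone held 3505 of those fragments. Without *Fgfr2*, a growth factor receptor, the counts were 27, 15, 5 and 8 of 1322, or 2.03, 0.95, 0.79 and 1.14 times. The interval of the whisker pad promoter library (1.41 to 2.96%) lay above its mean, but it is too narrow for the reason given above, and *Prrx1* alone held 7 of the 27. The homeobox gene *Prrx1* gave 7, 2, 0 and 2 of 122 fragments, and *Trp63*, a regulator of stratified epithelia, 4, 4, 1 and 0 of 274. *Prdm1*, a transcriptional repressor and a main subject of the study, had 2, 1, 0 and 1 of 130. Around *Shh*, the hedgehog ligand, 0 of 31 were scored, and such short genes cannot show a share near the library means. Around 18 kidney genes 12, 14, 7 and 7 of 1327 fragments were scored, or 0.90, 0.88, 1.10 and 1.00 times the mean, within the interval in every library. *Slc12a1*, a salt transporter of the renal tubule, had 1, 2, 1 and 3 of 108, and *Slc12a3*, another, 0, 4, 0 and 0 of 98.

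Gene families were described in the same manner. The 39 *Hox* genes, the body-axis regulators, were scored at 16, 10, 4 and 4 of 542 fragments, or 2.94, 1.54, 1.54 and 1.40 times the mean, with the interval above the mean only in the whisker pad promoter library. The 322 vomeronasal receptor genes were at 1.09, 1.51, 1.34 and 2.12 times, above the mean by interval in both kidney libraries, and 43.5% of their fragments had a recurring end. With ends at 1 place only, they were at 1.02, 1.26, 1.29 and 2.10 times. For 384 *Zfp* genes the values were 1.23, 1.33, 1.12 and 1.46 times, above the mean by interval in all but the whisker pad Leaf library, and 1.03, 1.14, 1.09 and 1.10 with such ends only. The 1126 olfactory receptor genes lay at 1.01, 1.21, 1.01 and 1.09 times and the 112 keratin genes at 0.70, 1.28, 1.00 and 0.91, with the mean inside the interval except for olfactory receptors in the kidney promoter library. The *Hist1* histone, major urinary protein and *H2-* genes held 387, 431 and 780 fragments, and their intervals held the mean in every library. No adjustment was made for the number of lists, nor for scored fragments that lie side by side.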

How the data were processed

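4C-seq libraries were made by the authors from fixed cells with NlaIII as first and DpnII as second enzyme, sequenced, and processed through HTSstation against mm10 (GRCm38), with the regions around the viewpoints left out. The labels' processing notes also name Bowtie2, whose version is not given in the sources used here. The deposited table gives a raw and a smoothed score per NlaIII fragment and library, used as a signal. How the authors scaled the raw signal is not stated, so the read depth is unknown and scores were compared within a library. Every sum, share and rank used the raw columns, and the smoothed ones served as an alternative.

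Fragments were taken by chromosome, and bins of 1 Mb needed at least 100 fragments. Detection meant a raw score above 0, and intervals are Wilson 95% intervals. End copies were counted by exact match of 32 bases beside NlaIII sites over 66 reference sequences. The mitochondrial genome, 1 of them, was matched apart and did not add to the copies. Annotation was GENCODE M21, and sequences came from the GRCm38 reference given. The 329 chromosome Y fragments, whose ends did not match NlaIII sites of this reference, were not used here. Named items were the highest fragments per library, the 10 fragments above 0 in all 4 libraries with the highest lowest score (2 of which are not reported here), the 5 highest and 5 lowest bins, and the 5 bins with the largest tissue ratio each way and viewpoint, ranked with 0.1 added to both values. The members and gene lists were chosen with earlier results of these data known. Python 3.11.15, numpy 2.4.6, pandas 2.3.3, matplotlib 3.10.9 and Biopython 1.88 were used, and the counting was tested on simulated data. Alternatives changed the minimum score, fragment length, DpnII site, bin size, fold, measure and, added later, the end copies.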

Additional observations from a re-analysis of the deposited data

How the results depend on the processing

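Of 194 alternative values for 34 results, 138 stayed within the limits set for a move and 56 moved. No paired analysis was possible because each tissue and viewpoint had 1 library and no result came from a test. Correlations moved when they changed by more than 0.1, detection when it left its Wilson interval, and other results when they changed over 1.5-fold. By these limits the share of the genome score in trans and the overlap of fragments did not move under any alternative tried. The Leaf overlap between tissues came near the limit, at 2.21 in place of 3.23 times with a score of at least 1. Shares of 70.2% (whisker pad Leaf), 81.8% and 84.0% (kidney promoter, Leaf) could not rise 1.5-fold, so they could not move upwards. The whisker pad promoter share went from 60.0% to 76.2% when scored fragments were counted in place of score. The cause of the moves was not tested. Values follow the order whisker pad promoter, kidney promoter, whisker pad Leaf, kidney Leaf.

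Detection was 0.805%, 1.02%, 0.447% and 0.428% with a score of at least 1, which turned the Leaf difference between tissues. It was 1.04%, 1.25%, 0.498% and 0.548% with fragments of 100 to 2000 bases. With both ends found at 1 place, an alternative added after seeing the data, it was 0.980%, 1.15%, 0.470% and 0.502%. The correlation of chromosomes with a score of at least 1 was 0.36 between tissues from Leaf, 0.0857 between viewpoints in whisker pad and 0.39 in kidney. By summed score these were -0.28, 0.39 and 0.18, and the pairs that differed in both gave 0.19 (whisker pad promoter with kidney Leaf) and -0.0423. The former of those pairs gave 0.18 with fragments of 100 to 2000 bases. Bin agreement by Pearson was 0.32 and 0.23 between tissues (promoter, Leaf), 0.23 and 0.41 between viewpoints (whisker pad, kidney) and 0.29 and 0.25 where both differed, and the kidney pair gave 0.20 in 5 Mb bins. Fragments holding 90% of the score numbered 10251, 13115, 5159 and 4467, and 36068, 47532, 20062 and 17207 held 50% of the smoothed score.

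Promoter bins 2-fold higher in whisker pad and kidney (84 and 72) became 244 and 200 at 1.5-fold, 4 and 1 at 4-fold, 0 and 0 with at least 50 scored fragments (9 bins compared), 4 and 2 in 5 Mb bins, and 157 and 153 by summed score. With a score of at least 1, the kidney count was 41. Leaf bins (4 and 8) became 0 and 2 at 4-fold, 0 and 0 with at least 50 scored fragments (1 bin), 1 and 2 with a score of at least 1 (10 bins) and 1 and 0 with ends at 1 place (1 bin, added after seeing the data). In 5 Mb bins 11 were higher in whisker pad. By summed score 6 were higher in whisker pad and 7 in kidney. Few scored fragments per bin limit every statement on single bins.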

Other observations

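Chromosome X, which is not among the autosomes described above, held 111588 fragments. From the promoter 809 of them (0.725%) had a score in the whisker pad library, against 1333 (1.19%) in the kidney library. The Leaf libraries had 363 (0.325%) and 611 (0.548%). Relative to the autosomes in trans these shares were 0.722 (95% interval 0.674 to 0.774) and 1.00 (from 0.948 to 1.05) from the promoter, and 0.678 (0.612 to 0.751) and 1.04 (0.957 to 1.12) from Leaf. The intervals of the whisker pad libraries did not overlap those of the kidney libraries from either viewpoint. They cover counting error only, with 1 library each, and the sex of the animals is not given in the sources used here.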
